A study of Homo sapiens with 4 samples.

Results

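The small nucleolar RNA (snoRNA) host genes were examined in A549, an established human lung adenocarcinoma cell line, after glutamine was withdrawn from the medium. The set held every gene whose symbol starts with SNHG, together with GAS5, ZFAS1, EPB41L4A-AS1 and TAF1D, and came to 33 of the 58560 genes to which the deposited transcript values were summed. Its members were taken by name and not by any measured value, but the set was chosen with earlier results of these data known. The shares set beside those of all genes below therefore describe the set and are not a test. The glutamine-deprived group, called QD in the labels, was washed in PBS and kept in glutamine-free DMEM with FBS. The untreated group, called ctrl, was grown in complete DMEM with FBS and antibiotics. Each group had 2 libraries of poly(A)-selected RNA. The labels give 24 h of deprivation for QD replicate 1 and 25 h for QD replicate 2, whereas the protocol and the design text give 24 h for the deprived cells. The labels do not say whether replicates were separate cultures, so the p-values below measure the spread between these libraries, which may be technical.

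Most snoRNAs of human cells are cut from introns. After the host transcript is spliced, the intron is debranched and trimmed, and the box C/D or box H/ACA proteins that bind it protect the snoRNA that is left. Box C/D snoRNAs guide methylation of ribosomal RNA and box H/ACA snoRNAs guide its pseudouridylation. Many hosts are messenger RNAs of ribosomal proteins and translation factors. Others, the SNHG genes, GAS5 and ZFAS1 among them, have exons with no long open reading frame, and their spliced RNA is known as a short-lived substrate of nonsense-mediated decay, the translation-dependent pathway that removes RNAs with early stop codons. GAS5 was named for its accumulation in growth-arrested cells. Several hosts begin with a cytosine and a run of pyrimidines, the 5′ terminal oligopyrimidine start also found in ribosomal protein messenger RNAs.

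Of the 33 host genes, 29 had a RefSeq start site with flanking sequence on GRCh38.p14. In 8 of these, or 27.6%, the annotated start was a C that opened a run of at least 5 pyrimidines, against 4.07% of all 35116 start windows of the same table. The sequences show that this start was carried by hosts that were higher, hosts that were lower and a host that was not called. The windows of the 7 such genes with any counts run from 20 bases before the start to the base at position 20 of the transcript, 5′ to 3′, and capitals mark the pyrimidine run from the start.
SNHG12 (chr1:28581854-28581893, minus strand): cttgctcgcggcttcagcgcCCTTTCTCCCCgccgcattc
SNHG32 (chr6:31834896-31834935, plus strand): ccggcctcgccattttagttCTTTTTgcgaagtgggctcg
ZFAS1 (chr20:49278622-49278661, plus strand): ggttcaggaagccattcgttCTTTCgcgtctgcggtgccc
TAF1D (chr11:93741476-93741515, minus strand): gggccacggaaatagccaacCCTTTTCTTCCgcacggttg
SNHG5 (chr6:85678714-85678753, minus strand): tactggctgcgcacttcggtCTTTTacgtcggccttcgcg
SNHG19 (chr16:2155339-2155378, minus strand): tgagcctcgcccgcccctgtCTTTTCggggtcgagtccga
SNHG4 (chr5:139274081-139274120, plus strand): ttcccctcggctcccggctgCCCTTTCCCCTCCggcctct
SNHG12, SNHG32, ZFAS1 and TAF1D were called higher in QD cells, SNHG5 was not called, and SNHG19 and SNHG4 were called lower. The remaining gene with such a start, SNHG18, had no counts. Among the hosts with a window but without such a start, 10 were called higher, 1 was called lower and 8 were not called. A pyrimidine run that begins a few bases from the annotated start was not counted. SNHG1, the gene with the largest change, is shown for comparison; the pyrimidine run does not reach 5 bases from its annotated start, so nothing is capitalised.
SNHG1 (chr11:62855866-62855905, minus strand): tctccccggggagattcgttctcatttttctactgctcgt
Over the whole 300 bases around the start (250 before and 50 after), none of the 29 windows held TGATGNAA, the core of the element bound by C/EBP and ATF family proteins, on either strand, and 3.62% of all windows did. CACGTG, the palindromic E-box, was in the windows of SNHG7 and SNHG30, 6.90% of the host genes with a window, against 7.26% of all windows. These matches describe letters in an annotated window and not binding.

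The libraries held 123414592 and 120425759 estimated counts in QD cells and 101496318 and 101982373 in ctrl cells. Levels below are CPM, counts relative to the library total, after TMM scaling, a correction that assumes most genes change little. A gene is named as called, or as risen or fallen, where the quasi-likelihood test of edgeR gave a Benjamini-Hochberg adjusted p under 0.05 over all 24527 genes tested. By that rule 25.2% of all genes were called higher and 24.4% lower, so a call alone is common here. The epithelial markers KRT8, KRT18, KRT19, EPCAM and CDH1 all fell, with summed levels of 2019 and 1730 CPM in QD libraries and 7570 and 7681 CPM in ctrl libraries. Of the 6 alveolar type II markers, the surfactant gene SFTPA1 was at 0 in every library and SFTPB and SFTPC stayed under 1 CPM without a call. NKX2-1, at 0.776 and 0.811 CPM in QD libraries and 0.0175 and 0.0635 CPM in ctrl libraries, and LAMP3, at 2.59 and 3.03 CPM in QD libraries and 0.420 and 0.0817 CPM in ctrl libraries, were called higher. ABCA3, at 27.7 and 28.6 CPM in QD libraries and 41.2 and 41.3 CPM in ctrl libraries, was called lower. The fibroblast and the endothelial markers each summed to at most 1.43 CPM. The blood markers HBB, HBA1 and PTPRC summed to 0.306 and 0.396 CPM in QD libraries, against 19.6 CPM in ctrl replicate 1 and 0.290 CPM in ctrl replicate 2. Whether the marker differences bear on the host genes was not tested. Without ctrl replicate 1, the library with the high blood markers, 13 of the 15 host genes called higher with all libraries were still called higher.

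Host genes as a group took a larger part of the RNA in deprived cells. They held 0.253% and 0.236% of all counts in the QD libraries, against 0.114% and 0.107% in the ctrl libraries. Summed over the set, length-corrected levels (TPM) were 4968 and 5005 in QD libraries and 1455 and 1281 in ctrl libraries. Of the 33 genes, 3 (SNHG18, SNHG27 and SNHG28) had no count in any library and the other 30 passed the filter on low counts. Of these 30, 15 were called higher in QD cells (25.2% of all genes were), 4 were called lower (24.4% of all genes) and 11 were not called; 49.6% of all genes were called in either direction. In 18 of the 30, both QD libraries lay above both ctrl libraries, which held for 36.1% of all genes tested. In 4 both lay below, against 40.5% of all genes, and in 8 the groups overlapped. The median log2 fold change was 0.64 over the 30 host genes and -0.06 over all genes tested. With library size as the only scaling both medians were lower, 0.31 for the host genes and -0.40 for all genes.

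**Figure D1:**
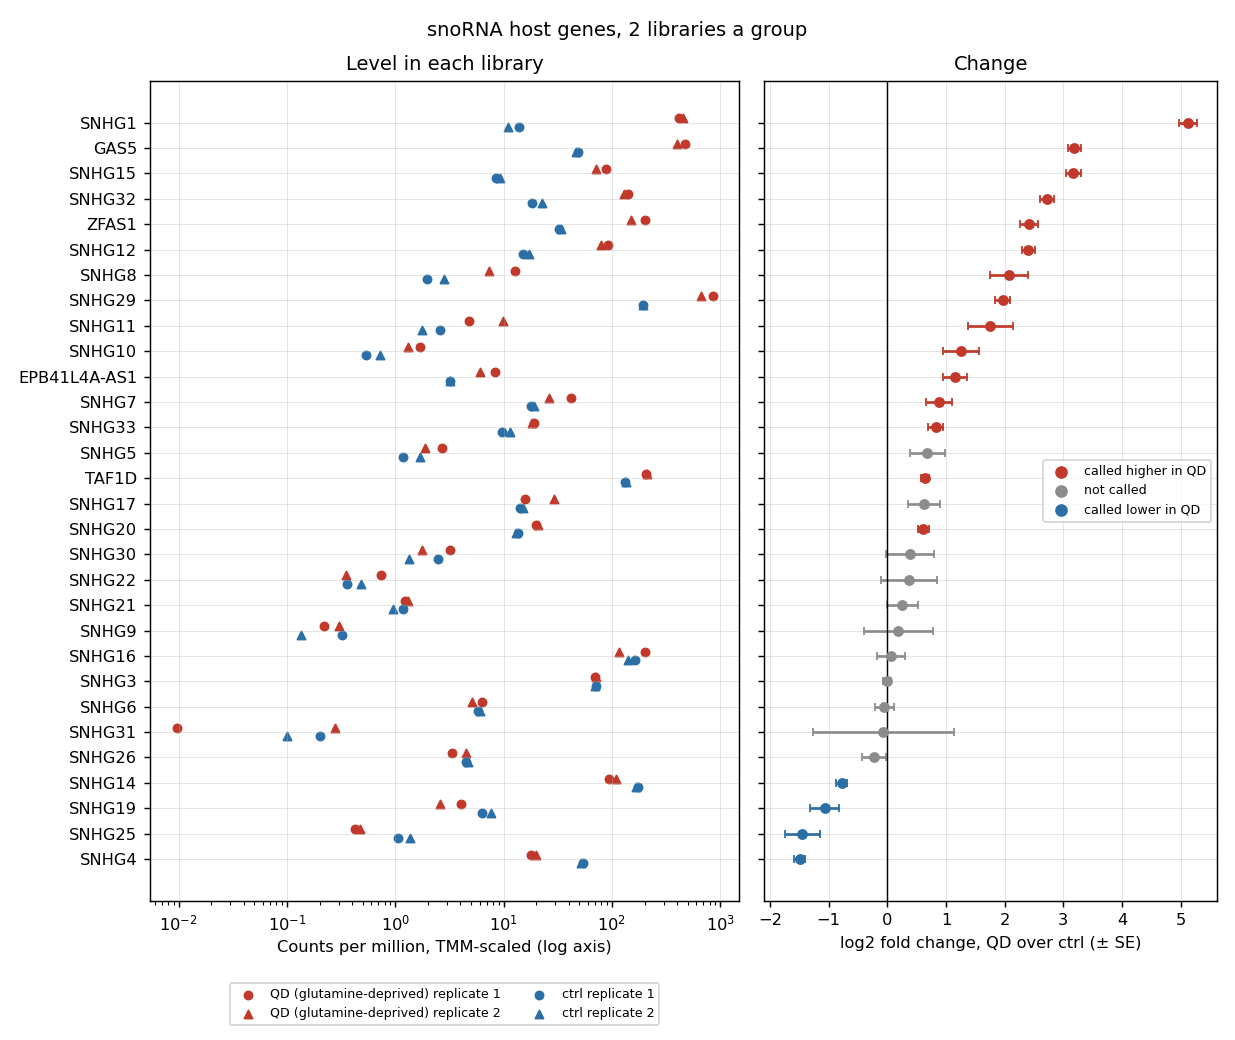
Left, TMM-scaled CPM of each of the 30 host genes tested (log axis), with QD replicates in red above ctrl replicates in blue; right, the log2 fold change of QD over ctrl with its SE from edgeR, coloured by call. SNHG1 stands apart at 5.13, and the 4 genes called lower reach -1.50.

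SNHG1, which carries SNORD22 and SNORD25 to SNORD31, all box C/D snoRNAs, in its introns, changed most. Its level was 412 and 457 CPM in QD libraries, against 13.9 and 10.97 CPM in ctrl libraries. The groups were far apart and the libraries within each were close. The log2 fold change was 5.13 ± 0.15 (SE, n = 2 a group), a 34.9-fold difference, with an adjusted p of 1.19e-05 in edgeR. GAS5, host of a series of box C/D snoRNAs and itself described as a decoy for the glucocorticoid receptor, stood at 471 and 395 CPM in QD libraries and at 48.4 and 46.6 CPM in ctrl libraries. Its libraries did not overlap either, and the log2 fold change was 3.19 ± 0.11 (edgeR adjusted p = 1.51e-05). SNHG15, which holds the box H/ACA snoRNA SNORA9, had 89.2 and 71.8 CPM in QD libraries and 8.53 and 9.33 CPM in ctrl libraries. All QD values were far above the ctrl values, with a log2 fold change of 3.17 ± 0.13 (edgeR adjusted p = 2.06e-05).

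Another 4 host genes rose by at least 2 on the log2 scale, which brings the number past that limit to 7 of 30; 3.78% of all genes tested were called higher with such a change. SNHG32, host of SNORD48 and SNORD52, had 140 and 131 CPM in QD libraries, against 18.4 and 22.7 CPM in ctrl libraries (log2 2.72 ± 0.12). ZFAS1, transcribed from the opposite strand of ZNFX1 and host of the SNORD12 family, had 203 and 149 CPM in QD libraries, against 32.5 and 33.7 CPM in ctrl libraries (log2 2.41 ± 0.15). SNHG12, host of SNORD99 and box H/ACA snoRNAs, had 92.1 and 78.6 CPM in QD libraries, against 15.3 and 17.01 CPM in ctrl libraries (log2 2.40 ± 0.11). In each of these 3 genes the lowest QD library lay more than 4 times above the highest ctrl library. SNHG8, host of SNORA24, was a low gene, at 12.8 and 7.27 CPM in QD libraries and 1.95 and 2.81 CPM in ctrl libraries, and its change of 2.07 ± 0.33 was the least precise of the 7. SNHG29, the host of SNORD49A and SNORD49B, was the highest host gene in both groups. It had 850 and 668 CPM in QD libraries and 194 CPM in each ctrl library, and rose by 1.97 ± 0.13 (edgeR adjusted p = 8.22e-05).

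The other genes called higher moved less. SNHG11 had 4.79 and 9.90 CPM in QD libraries and 2.59 and 1.76 CPM in ctrl libraries, a log2 difference of 1.75 ± 0.39 that was 1.15 without QD replicate 2. SNHG10, host of the Cajal body RNA SCARNA13, had 1.69 and 1.299 CPM in QD libraries, against 0.534 and 0.717 CPM in ctrl libraries (1.26 ± 0.31). Its call was lost without ctrl replicate 1, at 1.05 with an edgeR adjusted p of 0.0904. EPB41L4A-AS1, host of SNORA13, had 8.26 and 6.07 CPM in QD libraries, against 3.22 and 3.20 CPM in ctrl libraries (1.16 ± 0.20). SNHG7 stood at 42.3 and 26.03 CPM in QD libraries and 17.9 and 19.3 CPM in ctrl libraries (0.88 ± 0.22), with an edgeR adjusted p of 0.0180, and of 0.0502 without ctrl replicate 1. All of these QD libraries lay above their ctrl libraries, with the widest spread within QD cells for SNHG11 and SNHG7. The sums of EPB41L4A-AS1 and SNHG7 are partial and leave out well-counted transcripts that are given further below.

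The 3 smallest rises that were called were those of SNHG33, TAF1D and SNHG20. SNHG33 had 19.1 and 18.1 CPM in QD libraries, against 9.61 and 11.4 CPM in ctrl libraries (log2 0.82 ± 0.12). TAF1D, annotated as protein-coding like SNHG32, encodes a subunit of the SL1 complex that brings RNA polymerase I to ribosomal DNA. It had 208 and 211 CPM in QD libraries, against 133 and 134 CPM in ctrl libraries (log2 0.65 ± 0.07). SNHG20 had 20.01 and 20.8 CPM in QD libraries, against 13.7 and 13.0 CPM in ctrl libraries (log2 0.62 ± 0.10). The call of SNHG20 was lost with library size as the only scaling, at 0.28 with an edgeR adjusted p of 0.0846, as was that of SNHG7.

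SNHG4, SNHG25, SNHG19 and SNHG14 fell. SNHG4, whose introns hold SNORA74A, had 17.7 and 19.8 CPM in QD libraries, against 54.4 and 51.3 CPM in ctrl libraries. The groups were well apart, with a log2 fold change of -1.50 ± 0.09 (edgeR adjusted p = 5.60e-05). SNHG14, the long transcript of the imprinted region on chromosome 15 that carries the SNORD116 and SNORD115 clusters and overlaps UBE3A on the opposite strand, had 93.2 and 108 CPM in QD libraries, against 176 and 169 CPM in ctrl libraries (-0.78 ± 0.09). SNHG19, host of SNORD60, had 4.03 and 2.61 CPM in QD libraries, against 6.33 and 7.59 CPM in ctrl libraries (-1.07 ± 0.25). SNHG25, host of SNORD104, was a low gene at 0.421 and 0.470 CPM in QD libraries, against 1.07 and 1.37 CPM in ctrl libraries (-1.45 ± 0.30). Without ctrl replicate 2 neither SNHG19 nor SNHG25 was called, at -0.95 with an edgeR adjusted p of 0.0519 for SNHG19 and -1.27 with 0.0733 for SNHG25.

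Among the 11 host genes not called, SNHG3 and SNHG16 were the most abundant. SNHG3, host of SNORA73A and SNORA73B, had 69.8 and 71.1 CPM in QD libraries and 71.7 and 69.5 CPM in ctrl libraries, so the groups overlapped within a few percent. SNHG16, host of the SNORD1 family, had 201 and 117 CPM in QD libraries and 163 and 142 CPM in ctrl libraries, and here the QD libraries lay on both sides of the ctrl libraries. Its sign rested on the library: without QD replicate 1 it was called lower (-0.38, edgeR adjusted p = 0.0368) and without QD replicate 2 it was called higher (0.41, edgeR adjusted p = 0.0241). SNHG17 had 15.7 and 29.5 CPM in QD libraries and 14.2 and 14.98 CPM in ctrl libraries, with QD replicate 2 standing apart (0.63 ± 0.28, edgeR adjusted p = 0.111). Without QD replicate 1 the same gene was called higher at 1.02 (edgeR adjusted p = 5.46e-04). SNHG5 had 2.69 and 1.90 CPM in QD libraries and 1.17 and 1.69 CPM in ctrl libraries (0.68 ± 0.30, edgeR adjusted p = 0.111), and was called higher without QD replicate 2 (0.93, edgeR adjusted p = 0.0472). The other 7 genes not called were SNHG6, SNHG9, SNHG21, SNHG22, SNHG26, SNHG30 and SNHG31. None of these 7 exceeded 6.26 CPM in any library, and their log2 fold changes lay between -0.22 and 0.38, with SEs up to 1.205 for SNHG31.

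Ordered per length, SNHG29, GAS5 and SNHG1 led in QD cells. SNHG29 had a mean of 1246 ± 44.8 TPM in QD cells and 394 ± 33.1 TPM in ctrl cells (SD, n = 2 each). GAS5 had 1061 ± 45.5 TPM in QD cells and 119 ± 16.9 TPM in ctrl cells. SNHG1 had 989 ± 180 TPM in QD cells and 32.7 ± 6.45 TPM in ctrl cells, and so ranked 3rd of the host genes in QD cells and 11th in ctrl cells. GAS5 and SNHG1 in QD cells overlapped in their libraries and cannot be ordered. ZFAS1 followed at 436 ± 84.5 TPM in QD cells and 82.2 ± 8.12 TPM in ctrl cells. The 5 highest host genes held 79.5% of the summed TPM of the set in QD cells and 60.8% in ctrl cells.

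The transcripts of these genes did not all move alike. The files listed 315 host transcripts, of which 206 passed the filter. In the fit over transcripts 19 were called higher (1.12% of all 83759 transcripts tested were) and 1 lower (0.542% of all). The 19 came from 7 genes, GAS5, SNHG1, SNHG12, SNHG15, SNHG16, SNHG29 and SNHG32, and the transcript called lower was SNHG4-202. These calls are fragile: none of the 206 was called in either direction when any single library was left out, although 57 to 68 were then higher and 7 to 11 lower at an unadjusted p under 0.05 in edgeR, and DESeq2 with all libraries called 92 higher and 16 lower. Division of reads between overlapping transcripts is an estimate, so the counts of single transcripts are given here as the files hold them.

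In SNHG1, the multi-exon transcript SNHG1-217 (ENST00000541578, 588 bases) had 18563 and 22390 counts in QD libraries, against 252 and 340 in ctrl libraries. The retained-intron transcript SNHG1-201 (ENST00000535076) had 328 and 24 counts in QD libraries, against 554 and 142 in ctrl libraries, with overlapping groups. ZFAS1 showed a like contrast between its transcripts. ZFAS1-204 (ENST00000428008, 566 bases and 5 exons) had 12102 and 6761 counts in QD libraries, against 255 and 107 in ctrl libraries, while ZFAS1-210 (ENST00000623640, 732 bases and 2 exons) had 987 and 1227 counts in QD libraries, against 1375 and 1230 in ctrl libraries. Relative to its gene, ZFAS1-204 was higher in QD cells by 3.39 on the log2 scale (edgeR transcript usage test, adjusted p = 0.0257).

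GAS5-218 (ENST00000448718, 565 bases) had 7897 and 12496 counts in QD libraries, against 124 and 181 in ctrl libraries. GAS5-222 (ENST00000451607, 1007 bases) had 1067 and 1134 counts in QD libraries, against 1286 and 1128 in ctrl libraries, so that the long form hardly differed while the gene was 9.12 times higher. GAS5-221 (ENST00000450589) shows how uneven the division can be: it had 22993 counts in QD replicate 1 and 2784 in QD replicate 2, against 14 and 20 in ctrl libraries.

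SNHG16 was not called as a gene, yet its shortest main transcript was. SNHG16-206 (ENST00000587838, 884 bases) had 6755 and 5521 counts in QD libraries, against 226 and 323 in ctrl libraries, a log2 fold change of 4.54 ± 0.34 with an edgeR adjusted p of 0.0412. SNHG16-201 (ENST00000448136, 3607 bases) had 7357 and 2789 counts in QD libraries, against 9470 and 9914 in ctrl libraries, below both ctrl libraries in each QD library. The usage of SNHG16-206 relative to its gene was 4.50 higher on the log2 scale in QD cells (edgeR adjusted p = 0.00140). In SNHG17, also not called, the retained-intron transcript ENST00000449469 had 526 and 752 counts in QD libraries, against 1259 and 1057 in ctrl libraries, and SNHG17-208 had 617 and 558 counts in QD libraries, against 67 and 87 in ctrl libraries. In SNHG4, the gene that fell most, SNHG4-202 had 1002 and 1050 counts in QD libraries, against 4295 and 3980 in ctrl libraries (log2 -1.96 ± 0.17, edgeR adjusted p = 0.0469). In TAF1D the transcript annotated as a decay target, TAF1D-201, had 6256 and 6065 counts in QD libraries, against 2588 and 2363 in ctrl libraries (log2 1.37 ± 0.15, edgeR adjusted p = 0.0524).

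**Figure D2:**
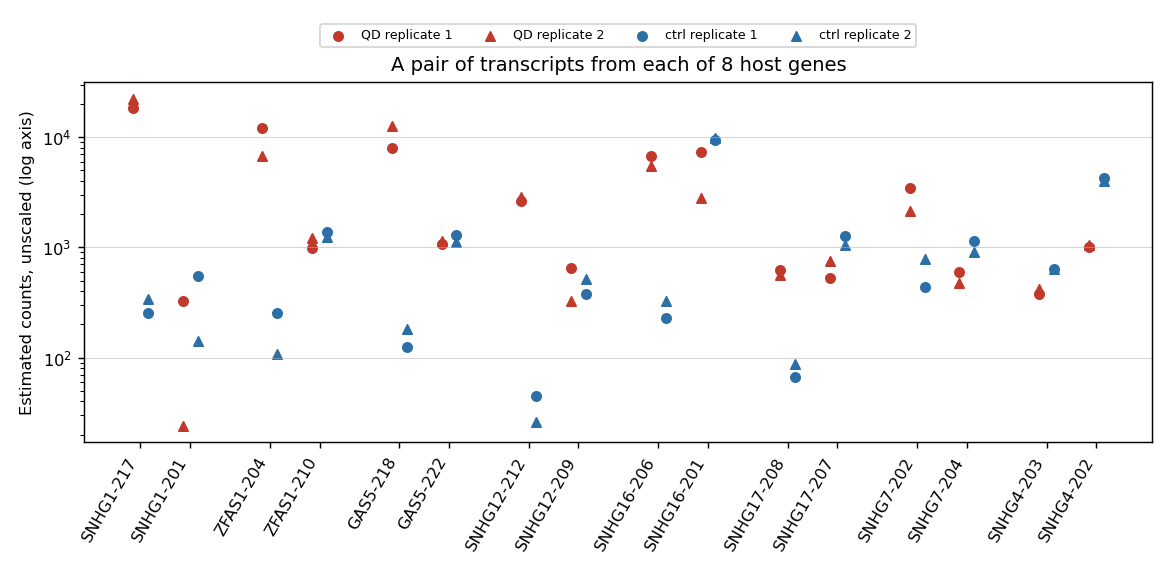
Estimated counts in each library (log axis, unscaled) for a pair of transcripts from each of 8 host genes, QD libraries in red left of ctrl libraries in blue. All hold at least 10% of their gene on average; the pairs were chosen after their values were seen. SNHG16-206 has 6755 and 5521 counts in QD libraries, against 226 and 323 in ctrl libraries, while SNHG16-201 is lower in QD libraries.

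Over all host transcripts tested, those not annotated as retained introns had a median log2 fold change of 2.18 where they were shorter than 1000 bases (94 transcripts) and 0.73 where they were longer (57 transcripts). Over all transcripts tested the same classes had medians of -0.05 and -0.02. Transcripts of one gene share reads, so these medians describe the set and are not a test. In the usage test, which asks whether a transcript moved unlike the rest of its gene, 19 of 202 host transcripts were called (1.81% of all 72162 tested), 8 above their gene (0.794% of all) and 11 below it (1.02% of all). Between 4 and 8 were called when a single library was left out, the lowest count being without ctrl replicate 1.

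Retained-intron transcripts held a smaller share of the counts in QD cells in most host genes with such a transcript. Of the 14 host genes with at least 100 counts in every library and an annotated retained-intron transcript, 9 had a lower share of their counts on such transcripts in both QD libraries than in both ctrl libraries (34.0% of 7093 genes did), and 4 had a higher share (19.8% of genes). In SNHG1 the share was 11.2% and 5.65% in QD libraries, against 69.4% and 51.4% in ctrl libraries. In SNHG12 it was 16.3% and 14.4% in QD libraries, against 65.2% and 71.6% in ctrl libraries. SNHG17 had shares of 44.9% and 31.1% in QD libraries, against 93.6% and 87.3% in ctrl libraries. The libraries of the 2 groups were far apart in each of these genes. SNHG3 showed the opposite, with 73.6% and 73.3% in QD libraries, against 58.3% and 61.8% in ctrl libraries. Summed over all host genes, with or without such a transcript, the share was 13.4% and 16.9% in QD libraries, against 25.6% in each ctrl library. Over the matched transcripts of all genes, again with or without such a transcript, it was 4.53% and 4.74% in QD libraries, against 5.17% and 5.07% in ctrl libraries.

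**Figure D3:**
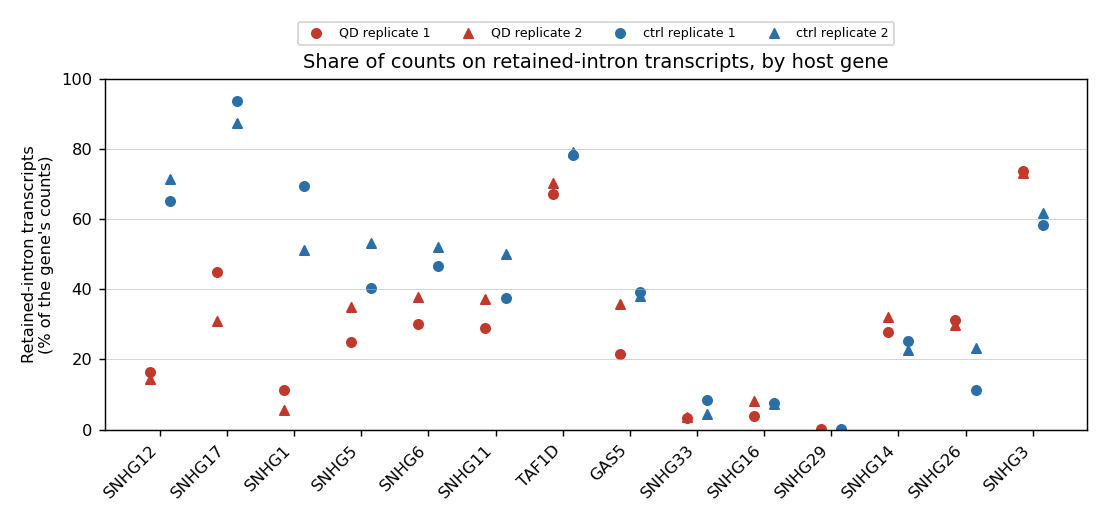
Percent of each host gene's counts on retained-intron transcripts in every library, QD in red left of ctrl in blue, ordered by the difference. SNHG12, SNHG17 and SNHG1 at the left have both QD libraries far below both ctrl libraries; SNHG3 at the right has both above.

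Without retained-intron transcripts in the gene sums, several host genes changed by more. The log2 fold change was then 6.37 for SNHG1 and 3.82 for SNHG12, and SNHG17 was called higher at 3.36 (edgeR adjusted p = 0.00416). SNHG5 was also called higher (1.12, edgeR adjusted p = 0.0377), and SNHG3 was called lower at -0.60 (edgeR adjusted p = 0.00503). The median over the tested host genes was 0.87 in that sum.

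The authors' deposited table lists 219 long non-coding RNA transcripts that passed their threshold, 103 higher and 116 lower in QD cells, with 1 FPKM value per group and no replicate values. It holds 20 transcripts of 12 host genes, and all 20 are higher in QD cells. Of the 20 largest rises in the authors' deposited table, 11 are host transcripts, and SNHG12-213 is the largest at 24.4 FPKM in QD cells and 0.542 FPKM in ctrl cells. The authors' deposited table gives SNHG1-211 as 403 FPKM in QD cells and 15.05 FPKM in ctrl cells. It gives GAS5-221 as 411 FPKM in QD cells and 32.6 FPKM in ctrl cells, and ZFAS1-204 as 289 FPKM in QD cells and 26.8 FPKM in ctrl cells. The host entry with the smallest fold in the authors' deposited table is SNHG29-243, which also has the highest FPKM of the 20 in both groups, with 569 FPKM in QD cells and 223 FPKM in ctrl cells.

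**Figure D4:**
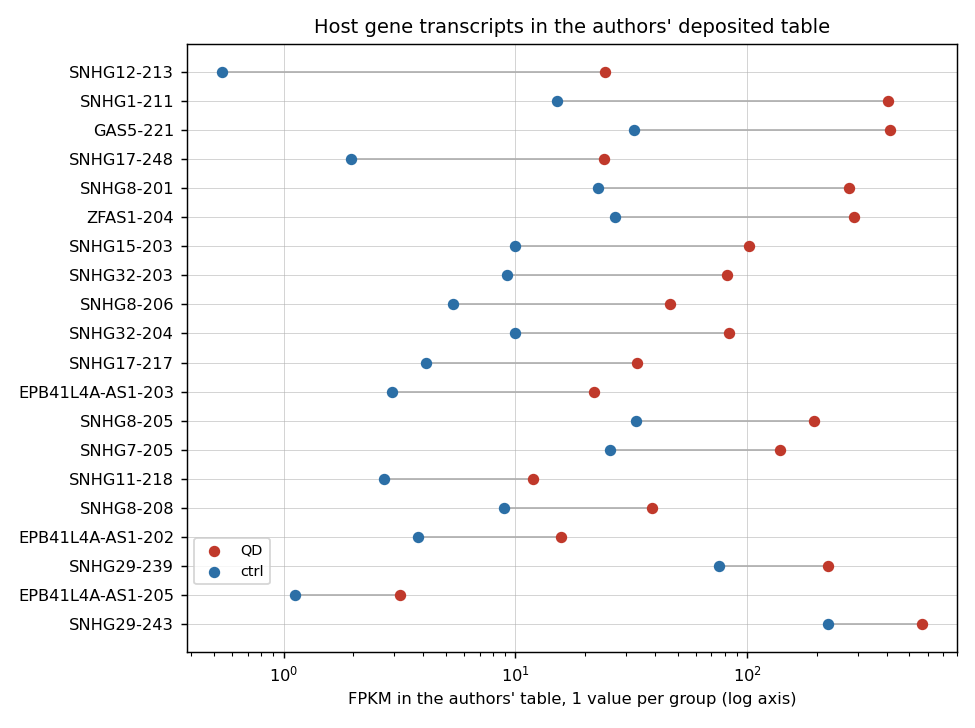
FPKM of the 20 host transcripts in the authors' deposited table (log axis, 1 value per group, no error available), QD in red and ctrl in blue. All 20 lie higher in QD cells, from SNHG12-213 at the top to SNHG29-243 at the bottom.

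The per-library files divide the same genes differently. SNHG8-201 (ENST00000602414) has 275 FPKM in QD cells and 22.7 FPKM in ctrl cells in the authors' deposited table, and 0 counts in every per-library file. SNHG1-211 (ENST00000539921) has only 30 and 43 counts in QD files and 10 and 11 in ctrl files, although its gene has 43041 and 49630 counts in the QD files. Of the 20 entries, 9 are transcripts that GENCODE 29 lacks, so their counts are not in the gene sums above. When the table's transcripts of this kind were added, SNHG17 was called higher at 1.68 (edgeR adjusted p = 5.92e-05), SNHG7 stood at 1.95 and EPB41L4A-AS1 at 2.03, and SNHG8 dropped to 0.85 (edgeR adjusted p = 0.0473). That addition favours genes with an entry in the table, all of which passed the authors' threshold. Among the 9, SNHG7-205 had 11730 and 10947 counts in QD files and 2145 and 1846 in ctrl files. The gene sum used for SNHG7 was 4423 and 2825 in QD files and 2041 and 2123 in ctrl files. EPB41L4A-AS1-205 had 2542 and 2900 counts in QD files and 450 and 625 in ctrl files. Its gene sum was 863 and 659 in QD files and 368 and 353 in ctrl files. Others were small, such as SNHG29-239 with 48 and 54 counts in QD files.

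The snoRNAs themselves could be read for few hosts. GENCODE 29 places 155 snoRNA genes inside the host genes, 84 of them in SNHG14, and 49 had exactly 1 count in all 4 libraries, which cannot be read as a measured level. It places none in GAS5, in which RefSeq lists 11. Only 16 passed the filter: SNORA13, SCARNA13, SNORD99, SNORD1B, SNORA71B, SNORD60, SCARNA16, SNORD93, SNORA73A, SNORA73B, SNORA74D, SNORA74A, SNORD6, SNORD12C, SNORD12B and an unnamed snoRNA gene in SNHG33. snoRNAs end without a poly(A) tail and poly-T beads were used, so these counts can include host introns. Of the 16, edgeR called 0 higher, against 25.2% of all genes and 6.98% of the 129 snoRNA genes tested. At an unadjusted p under 0.05 in edgeR 1 was higher, and DESeq2 called 1 higher and limma-voom 0. DESeq2 called 1 lower. In edgeR 3 were called lower (18.75%, against 24.4% of all genes and 6.20% of those 129). The lowest adjusted p of these was that of SNORD60, inside SNHG19, with 7 and 13 counts in QD libraries, against 77 and 78 in ctrl libraries (log2 -2.87 ± 0.46, edgeR adjusted p = 0.00309). Its sequence is shown with the letters TGATGA and the last CTGA in capitals, the letters of the C and D boxes for which the class is named.
SNORD60 (chr16:2155023-2155105, minus strand, GRCh38): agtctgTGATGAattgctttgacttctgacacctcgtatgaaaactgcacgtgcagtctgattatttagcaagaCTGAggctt
A second snoRNA gene of GENCODE 29 (ENSG00000281010) lies inside SNORD60 on the same strand and had 31 and 1 counts in QD libraries, against 7 and 8 in ctrl libraries. With the counts of both added, the locus had 38 and 14 counts in QD libraries, against 84 and 86 in ctrl libraries, and the QD replicates were far apart (log2 -1.62 ± 0.53, edgeR adjusted p = 0.0460). The summed locus was no longer called without QD replicate 2, ctrl replicate 1 or ctrl replicate 2 (edgeR adjusted p of 0.0693, 0.108 and 0.132), while without QD replicate 1 it was at -2.54 with an edgeR adjusted p of 0.00485. This sum was chosen after the values were seen.
SNORA74A in SNHG4 had 57 and 51 counts in QD libraries, against 102 and 135 in ctrl libraries (log2 -1.06 ± 0.32, edgeR adjusted p = 0.0351). SNORD12B in ZFAS1 had 5 and 6 counts in QD libraries, against 24 and 22 in ctrl libraries (log2 -1.97 ± 0.65, edgeR adjusted p = 0.0480). The hosts of SNORD60 and SNORA74A fell as well, while SNORD12B was lower under a host that rose. SNORA74A was no longer called without QD replicate 2, ctrl replicate 1 or ctrl replicate 2 (edgeR adjusted p of 0.0852, 0.0565 and 0.225), and SNORD12B not without any of the 4 libraries (edgeR adjusted p of 0.116 to 0.262). SNORA73B and SCARNA13, the most counted, had 1147 and 792, and 1665 and 991, counts in QD libraries, against 606 and 746, and 760 and 1197, in ctrl libraries, and neither was called.

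Of 20 genes for the proteins of snoRNA particles and their assembly, 10 rose, where 25.2% of all genes did. In edgeR 0 fell, with 1 lower at an unadjusted p under 0.05, and DESeq2 and limma-voom also called 0 lower. The median log2 fold change was 0.28. Among the box C/D core proteins, NOP58 (0.90 ± 0.08), SNU13 (0.88 ± 0.11) and NOP56 (0.47 ± 0.10) rose, and the methyltransferase FBL had 133 and 112 CPM in QD libraries and 138 and 152 CPM in ctrl libraries without a call. Among the box H/ACA core, the pseudouridine synthase DKC1 had 112 and 109 CPM in QD libraries, against 53.2 and 53.4 CPM in ctrl libraries (1.05 ± 0.07), and GAR1 and NOP10 rose as well. ZNHIT6, an assembly factor of box C/D particles, rose most, with 51.0 and 53.2 CPM in QD libraries, against 17.2 and 16.04 CPM in ctrl libraries (1.65 ± 0.08). The chaperone NOLC1 had 179 CPM in each QD library, against 81.9 and 70.8 CPM in ctrl libraries (1.23 ± 0.09). With library size as the only scaling, 7 were called higher and 5 lower.

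Of 14 genes for nonsense-mediated decay and the exon junction complex, 12 rose (85.7%, against 25.2% of all genes), with a median of 0.67. In edgeR 0 fell, also at an unadjusted p under 0.05 and in DESeq2 and limma-voom. SMG1, the kinase that phosphorylates UPF1, had 627 and 723 CPM in QD libraries, against 294 and 283 CPM in ctrl libraries (1.22 ± 0.10). SMG9, which binds SMG1, had 93.8 and 80.9 CPM in QD libraries, against 32.1 and 31.2 CPM in ctrl libraries (1.46 ± 0.09). SMG5 rose by 1.11 ± 0.09 and the junction protein RBM8A by 0.68 ± 0.07, while SMG8 and UPF3A were not called. These are levels of messenger RNA, and decay itself was not measured. Among the 250 protein-coding genes tested that hold a snoRNA by GENCODE 29, the host genes described above left out, 122 rose (48.8%, against 25.2% of all genes) and 52 fell (20.8%, against 24.4% of all genes), with a median of 0.36. On a hand-picked list of 33 coding hosts, mostly genes of ribosomal proteins and translation factors, 20 rose (60.6%) and 1 fell (3.03%), with a median of 0.47. EIF4A2, an RNA helicase of translation initiation, had 356 and 336 CPM in QD libraries, against 167 and 184 CPM in ctrl libraries (0.98 ± 0.08), and RPL37 and EIF4A1 also rose. The chaperone HSPA8 was the member of that list that fell, with 184 and 171 CPM in QD libraries, against 1661 and 1923 CPM in ctrl libraries (-3.33 ± 0.12). The count of list members called higher was 12 without QD replicate 1 and 12 without ctrl replicate 1, and with library size as the only scaling 10 were called higher and 6 lower. Over all 5033 long non-coding genes tested, 9.91% were called higher and 17.2% lower, with a median of -0.28.

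The kit is not stated to keep strand, so reads of genes that overlap a host cannot be told apart from it. EPB41L4A, which overlaps EPB41L4A-AS1 on the opposite strand, had 3.10 and 2.91 CPM in QD libraries, against 10.97 and 12.1 CPM in ctrl libraries, and so fell while its partner rose. GAS5-AS1 likewise fell (-1.24 ± 0.20) where GAS5 rose. RCC1, which shares exons with SNHG3 on the same strand, fell by 1.02 ± 0.07 on the log2 scale, whereas SNHG3 was not called. UBE3A rose by 1.06 ± 0.07 where SNHG14 fell. SLC3A2, the heavy chain of amino acid exchangers, starts within 1000 bases of SNHG1 on the opposite strand, and had 2926 and 2445 CPM in QD libraries, against 980 and 983 CPM in ctrl libraries (1.45 ± 0.12). In each of these pairs except SNHG1 with SLC3A2, host and neighbour differed in direction or call.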

How the data were processed

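The per-library files give 1 whole-number value per transcript, deposited by the authors as counts and treated here as estimated counts, since overlapping transcripts of a gene received separate shares. HISAT2 2.0.5, featureCounts 1.5.0-p3, DESeq2 1.20.0 and hg38 are named in the submitters' processing notes, with no role given. Neither the program that split reads between transcripts nor the annotation version is given in the sources used here. The FPKM, log2 fold changes, test score, p-values and q-values of the series table are the authors' own.

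Of 229420 transcripts, 205306 matched GENCODE 29 (GRCh38) and were summed to genes by Ensembl ID; these held 98.0% to 98.2% of counts, and the other 24114 were left out, so the sums of genes with newer transcripts are partial. Symbols are current ones; SNHG33 is a RefSeq name. Genes passing filterByExpr were scaled by TMM and tested with edgeR 4.0.16 in R 4.3.3 (glmQLFit, glmQLFTest; two-sided p, Benjamini-Hochberg adjustment), likewise transcripts, and usage with diffSpliceDGE. SEs are the absolute log2 fold change over the square root of F. TPM use matched transcripts. Scripts were tested on simulated data. Library pairs differed by 43.6 (QD) and 31.0 (ctrl) in chi-square per degree of freedom, so none is a copy. Alternatives were other scalings, filters, DESeq2 1.42.0, limma 3.58.1 voom, leaving out each library, a replicate block, sums without retained introns and, chosen after seeing the data, sums with the authors' table transcripts.

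The host genes and lists were chosen with earlier results of these data known. All host genes are named, transcripts of at least 10% of a gene or called, the genes of smallest p of each list, and snoRNAs that passed the filter; other transcripts and neighbours were picked after their values were seen. Start windows are from RefSeq (GRCh38.p14) and the SNORD60 sequence from GENCODE 29 transcripts.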

Additional observations from a re-analysis of the deposited data

How the results depend on the processing

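Of the 15 host genes called higher, 12 were called higher under all 14 alternatives, and of the 4 called lower, SNHG4 and SNHG14 were; the count called lower was 2 to 5 over single libraries left out. The median of the host genes was 0.31 with library size only, 0.87 without retained-intron transcripts and 0.65 to 0.80 with a library left out. Genes with values near 0 changed sign: SNHG21 (-0.0783), SNHG9 (-0.15) and SNHG16 (-0.29) with library size only, SNHG16 (-0.0567) with upper-quartile factors, SNHG3 with RLE factors (0.0266) and in DESeq2 (0.0266), and SNHG6 without retained-intron transcripts (0.33). Over single libraries left out, log2 fold changes ranged from -0.11 to 0.87 (SNHG30), -0.25 to 0.83 (SNHG22), -0.32 to 0.93 (SNHG9), -0.38 to 0.41 (SNHG16), -0.0407 to 0.0155 (SNHG3), -0.191 to 0.0994 (SNHG6) and -3.81 to 0.88 (SNHG31).

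Particle protein genes called lower numbered 3 with upper-quartile factors, 5 with library size only, 3 with at least 50 counts in 2 libraries, 1 without retained-intron transcripts and 0 to 1 with a library left out. Library size only called 1 decay factor lower, and 10 coding hosts higher and 6 lower (12 to 22 higher with a library left out). Of 129 snoRNA genes, edgeR called 9 higher and 8 lower; 5 were higher with library size only, 5 lower without a filter, 4 lower with at least 50 counts, and 3 to 7 lower with a library left out. Host transcripts called higher were 0 without a filter (85 at an unadjusted p under 0.05), 38 with at least 50 counts, 92 in DESeq2 and 29 in limma-voom, and those called lower 0 without a filter (12 unadjusted), 3 with at least 50 counts and 16 in DESeq2; with a library left out both were 0 to 0. Over all transcripts, 941 were called higher and 454 lower: 444 higher with library size only, 0 and 0 without a filter, 2874 and 2385 with at least 50 counts, 12842 and 12437 in DESeq2, 1964 and 1177 in limma-voom, and 0 to 0 in both directions with a library left out. Usage calls were 4 to 8 with a library left out. The cause of these differences was not tested.

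Same-numbered libraries did not deviate together (correlation of their deviations from the group means, -0.0235). This value cannot tell whether they were handled as pairs, which the labels do not say. With the replicate block, 15 host genes were called higher and 4 lower, with a median of 0.63; 0 host transcripts were called higher (66 unadjusted) and 0 lower (7 unadjusted), 0 and 0 of all transcripts, 10 in usage, and 5 snoRNA genes higher and 5 lower. Each library held 101496318 counts or more. The tested host genes under 1 CPM in every library (SNHG9, SNHG22 and SNHG31) had SEs of 0.47 to 1.205. Differences no larger than their SE could not be called, and larger ones can also be missed. SNHG5, at 0.68 ± 0.30, was not called.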

Other observations

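Host gene transcripts of the retained-intron class had a median log2 fold change of 0.35 (55 tested), against 1.37 for the other host transcripts (151 tested); over all transcripts tested, those annotated as retained introns had a median of -0.09 (15774 tested) and those annotated as decay targets 0.14 (6623 tested). These medians are descriptions, since transcripts of a gene share reads.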
